A study of Mus musculus with 69 samples.

Results

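The 6 genes described here are the imprinted genes H19 and Igf2 (the H19-Igf2 domain), Kcnq1ot1, Cdkn1c and Phlda2 (the Kcnq1ot1 domain), all on distal mouse chromosome 7, and Igf2r on chromosome 17. They were chosen by name and position, as 6 of the 16263 genes in the mRNA-seq count table, together with the 21 of 89596 ATAC-seq regions lying within 20 kb of one of them. All 6 genes passed the filter on low counts. The study asked what acetylation of lysine 27 of histone H3 contributes to gene activity, by replacing that lysine with arginine in the variant H3.3 (H3.3K27R) in mouse embryonic stem cells (ESCs). The groups were WT cells of the J1 line, of strain 129S4/SvJae, and the H3.3K27R lines Mut18 and Mut43, in which both H3.3 genes, H3f3a and H3f3b, had been edited with CRISPR-Cas9. Each mutant line is 1 clone of J1, none of the groups carries any other labelled treatment, and all were grown on feeder cells that were removed by passaging before harvest. There were 2 libraries per line in each assay.

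Imprinted genes are expressed mainly from the copy inherited from one parent, because a control element carries DNA methylation on only one parental chromosome. In the H19-Igf2 domain the insulator protein CTCF binds the unmethylated maternal element, so that shared enhancers act on H19 there and on Igf2 on the paternal chromosome. Kcnq1ot1 and Airn are long non-coding RNAs made from the paternal chromosome that silence neighbouring genes on it, among them Cdkn1c and Phlda2 for Kcnq1ot1, and Igf2r for Airn. Igf2 encodes a fetal growth factor and Igf2r a receptor that removes it, and Cdkn1c and Phlda2 both restrain growth. J1 is an inbred line and the counts are sums over both parental copies, so nothing here is split by allele.

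The promoters of members that ATAC-seq peaks covered in all libraries, and that of Airn, are shown because they differ in base composition and motif content. They come from RefSeq windows of GRCm38.p6 (250 bases before to 50 after a start), which matched 4 of 6 members, Igf2 with several starts, and Airn. Each is given 5′ to 3′ on the strand of its gene, and capitals mark CCAAT, the only motif found in them of those searched on both strands (CCAAT and TGCCGC). For Igf2r and Phlda2 the 250 bases before the start are printed. They lie at chr7:143296498-143296797 for Kcnq1ot1, chr17:12741061-12741360 for Airn, chr17:12769707-12769956 for Igf2r and chr7:143502525-143502774 for Phlda2.
Kcnq1ot1: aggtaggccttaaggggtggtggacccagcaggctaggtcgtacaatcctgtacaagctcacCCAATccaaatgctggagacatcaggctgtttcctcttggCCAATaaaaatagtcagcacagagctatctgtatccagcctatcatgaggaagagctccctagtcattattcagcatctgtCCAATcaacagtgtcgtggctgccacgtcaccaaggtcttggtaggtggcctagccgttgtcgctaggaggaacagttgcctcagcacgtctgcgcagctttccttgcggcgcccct
Airn: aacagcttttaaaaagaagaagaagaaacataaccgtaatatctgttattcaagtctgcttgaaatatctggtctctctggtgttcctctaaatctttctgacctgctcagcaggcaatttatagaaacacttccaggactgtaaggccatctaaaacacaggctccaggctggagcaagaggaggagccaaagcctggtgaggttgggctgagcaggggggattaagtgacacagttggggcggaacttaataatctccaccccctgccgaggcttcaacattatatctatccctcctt
Igf2r: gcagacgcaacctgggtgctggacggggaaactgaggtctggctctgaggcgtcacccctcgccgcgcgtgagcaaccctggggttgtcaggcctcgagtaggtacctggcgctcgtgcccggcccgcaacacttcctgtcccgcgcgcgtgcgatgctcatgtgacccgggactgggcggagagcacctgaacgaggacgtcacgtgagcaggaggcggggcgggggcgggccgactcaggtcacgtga
Phlda2: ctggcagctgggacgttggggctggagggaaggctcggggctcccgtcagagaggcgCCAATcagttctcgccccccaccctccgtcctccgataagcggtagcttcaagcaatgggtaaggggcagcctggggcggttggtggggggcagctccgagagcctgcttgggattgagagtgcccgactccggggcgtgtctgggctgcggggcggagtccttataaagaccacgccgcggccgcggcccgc

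The Kcnq1ot1 window held 3 CCAAT matches, which 3.37% of 32851 RefSeq promoter windows do, and their first bases lay at -188, -148 and -67 from the start. The Phlda2 window held 1, at -193, as 37.4% of windows hold at least 1. The promoters of the silencing RNAs were poorer in CpG than those of Igf2r and Phlda2, with 9 CpG in the 300 bases of Kcnq1ot1 and 3 in Airn against 34 in Igf2r and 26 in Phlda2. At least as many CpG were held by 45.8% of windows for Kcnq1ot1, 76.7% for Airn, 7.73% for Igf2r and 16.9% for Phlda2. The windows of Igf2, not printed, held 2, 14, 24 and 7, so not every coding member was richer than Kcnq1ot1. TGCCGC, a hexamer that the imprint protector ZFP57 binds when methylated, occurred in 11.6% of windows and among the members' windows in 1 of Igf2, 30 bases after its start. A match is a run of letters and not a binding site.

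Among the 6 members, H19 fell most in the mutants, Cdkn1c and Kcnq1ot1 fell less, Igf2r fell slightly, Phlda2 rose slightly, and Igf2 went in opposite directions in the 2 clones. Counts were scaled by edgeR's TMM factors to normalized counts, comparable between libraries for 1 gene, and tested with edgeR's quasi-likelihood F-test over 14061 genes, 4 mutant against 2 WT libraries, with p-values adjusted after Benjamini and Hochberg. The 4 mutant libraries come from 2 clones and the 2 WT libraries from a single line. The p-values therefore do not measure the spread between independent lines. A gene counted as called at an adjusted p under 0.05 and more than 2-fold. By that rule 1 of 6 members, H19, was called, where 5.65% of all tested genes were called lower and 3.28% higher. By adjusted p alone 4 members were lower and 1 was higher, against 24.5% and 23.5% of all genes. In bulk RNA, fewer cells expressing a gene and less RNA per cell cannot be told apart.

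**Figure D1:**
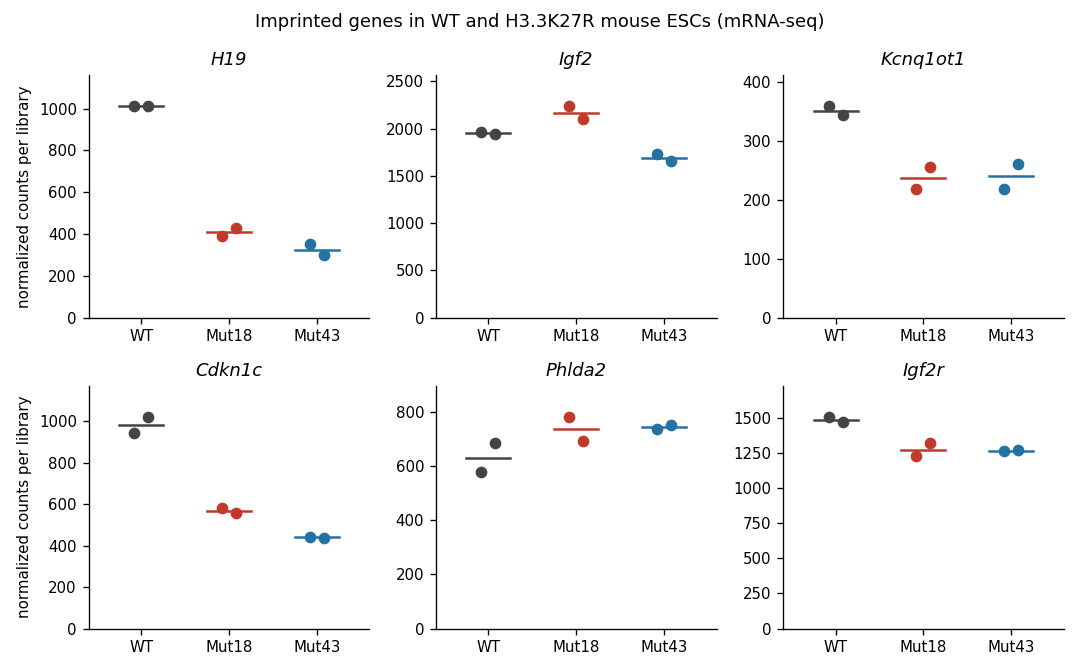
Normalized mRNA-seq counts (vertical axes, each from 0) of the 6 imprinted genes in WT, Mut18 and Mut43, with 1 point per library and a line at the mean of 2. H19, Cdkn1c, Kcnq1ot1 and Igf2r lie lower in all 4 mutant libraries than in both WT libraries, while Igf2 lies above WT in Mut18 and below it in Mut43.

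H19 is a non-coding RNA of fetal tissue and the host transcript of miR-675. It lies at chr7:142575529-142578143 on the minus strand of GRCm38 and its exons cover 2.46 kb. Both WT libraries had 1010.5 normalized counts, the Mut18 libraries 390.5 and 428, and the Mut43 libraries 351 and 300.4. The 4 mutant libraries did not overlap with WT, which for lower levels held for 30.4% of all tested genes. The WT mean was 1010.5 ± 0.0305 (SD, n = 2) and the mutant mean 367 ± 54.6 (SD, n = 4). The log2 fold change was -1.46 (SE 0.0846, 95% interval -1.64 to -1.28, edgeR adjusted p = 2.93e-11), that is 2.75-fold lower. Leaving out either WT library changed little, with -1.46 without replicate 1 and -1.45 without replicate 2.

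The mature products that H19 carries are printed to show what the falling transcript encodes, from RefSeq, with the seed (bases 2 to 8) in capitals. The 2 arms have different seeds, and neither was measured, since an mRNA count does not give the level of a mature miRNA.
miR-675-5p: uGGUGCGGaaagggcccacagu
miR-675-3p: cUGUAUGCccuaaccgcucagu

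Igf2, the fetal growth factor, begins further from the centromere than H19 and ends 72.6 kb from the H19 start (chr7:142650766-142666816). Its normalized counts for WT were 1961 and 1939.7, for Mut18 2234 and 2097, and for Mut43 1731 and 1656. Both Mut18 libraries lay above WT and both Mut43 libraries below it. The pooled comparison therefore gave -0.02 on the log2 scale (SE 0.0806, 95% interval -0.18 to 0.15, edgeR adjusted p = 0.893), an average of opposite shifts. Mut18 alone was higher by 0.15 (SE 0.0486, edgeR adjusted p = 0.0144), as 20.3% of all genes were by adjusted p, and Mut43 alone was lower, at -0.20 (SE 0.0498, edgeR adjusted p = 0.00148), as 23.9% were, both against the same 2 WT libraries. The rise in Mut18 missed the threshold in DESeq2 (adjusted p = 0.0647), when scaled by library totals (edgeR adjusted p = 0.0526), without WT replicate 2 (0.0613) and without Mut18 replicate 1 (0.165).

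The difference between the clones in Igf2 did not depend on WT. Mut43 minus Mut18 was -0.35 (SE 0.0495, 95% interval -0.46 to -0.25, edgeR adjusted p = 0.000257), in a comparison in which 0.327% of all genes had an adjusted p under 0.05. It missed the threshold without Mut18 replicate 1 (-0.31, edgeR adjusted p = 0.0649) or without Mut43 replicate 2 (-0.32, edgeR adjusted p = 0.0794).

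Against WT, the neighbouring genes H19 and Igf2 thus differed in their change, while between the clones both were lower in Mut43, by -0.33 for H19 and -0.35 for Igf2. Per read of Igf2 the WT libraries held 0.516 and 0.521 reads of H19, Mut18 held 0.175 and 0.204, and Mut43 held 0.203 and 0.182. The clones overlapped with each other in this ratio and neither overlapped with WT. The mean log2 ratio for WT was -0.95 ± 0.0109 (SD, n = 2) and for the mutants -2.39 ± 0.113 (SD, n = 4), and they differed by -1.44. The exact permutation test over samples, made two-sided by doubling its smaller tail, gave p = 0.133, the smallest it can give here.

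Kcnq1ot1 is transcribed as 1 exon of 93.1 kb (chr7:143203458-143296549, minus strand) from inside the potassium channel gene Kcnq1, on the opposite strand. Whether the counting used strand is not given in the sources used here, so reads of Kcnq1 RNA and of Kcnq1ot1 may not be separated, and Kcnq1 itself was not analysed here. Its normalized counts for WT were 358 and 344, for Mut18 218 and 255, and for Mut43 219 and 261. All 4 mutant libraries lay below WT and the clones overlapped. The log2 fold change was -0.56 (SE 0.0874, 95% interval -0.74 to -0.38, edgeR adjusted p = 2.21e-05), with -0.57 in Mut18 and -0.55 in Mut43.

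Cdkn1c encodes p57, an inhibitor of cyclin-dependent kinases expressed from the maternal copy, and starts 165 kb from the Kcnq1ot1 start (chr7:143458339-143461050). Its normalized counts for WT were 944 and 1020.3, for Mut18 582 and 558, and for Mut43 444 and 438. The mutant libraries lay below WT without overlap, and those of Mut43 below those of Mut18. The log2 fold change was -0.96 (SE 0.0863, 95% interval -1.14 to -0.78, edgeR adjusted p = 1.59e-08), 1.94-fold lower and so just short of the 2-fold rule. It passed that rule without WT replicate 1 (-1.01), without Mut18 replicate 1 (-1.03) or without Mut18 replicate 2 (-1.01), which made 2 members called in place of 1. By clone it was -0.78 in Mut18 and -1.15 in Mut43, and only the latter was past 2-fold, where 4.74% and 6.81% of all genes were called lower. The clones differed by -0.37 (SE 0.0763, edgeR adjusted p = 0.0256), which missed the threshold in DESeq2 (adjusted p = 0.129), with no filter on low counts (edgeR adjusted p = 0.0558) and when any 1 of the 4 mutant libraries was left out (edgeR adjusted p from 0.217 to 0.546).

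Phlda2, which limits placental growth and is maternally expressed, lies 40.5 kb beyond Cdkn1c (chr7:143501545-143503150). Its normalized counts for WT were 576 and 683, for Mut18 779 and 693, and for Mut43 736 and 752. All mutant libraries lay above both WT libraries, as did 29.4% of all tested genes, but WT replicate 2 was close to the lowest mutant library. The log2 fold change was 0.23 (SE 0.0696, 95% interval 0.09 to 0.38, edgeR adjusted p = 0.00901). This rested on WT replicate 1, since without it the value was 0.12 (edgeR adjusted p = 0.25). Cdkn1c and Phlda2, which share a silencing RNA, thus moved in opposite directions in the fit over all libraries, while that RNA fell.

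Igf2r, the receptor that clears IGF2 and is maternally expressed, lies at chr17:12682406-12769664, and the Airn promoter sits 28.4 kb inside it. Its normalized counts for WT were 1506.5 and 1470.2, for Mut18 1231.5 and 1321, and for Mut43 1265 and 1273.5. The mutant libraries lay below WT without overlap and the clones overlapped. The log2 fold change was -0.23 (SE 0.0445, 95% interval -0.32 to -0.13, edgeR adjusted p = 0.000284), with -0.22 in Mut18 and -0.23 in Mut43. Airn did not pass the filter on low counts, with normalized counts for WT of 4.9 and 5.9, for Mut18 of 2.0 and 4.0, and for Mut43 of 0 and 4.1, too few to compare. Igf2r and Airn overlap on opposite strands, so the limit on strand holds for them too.

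**Figure D2:**
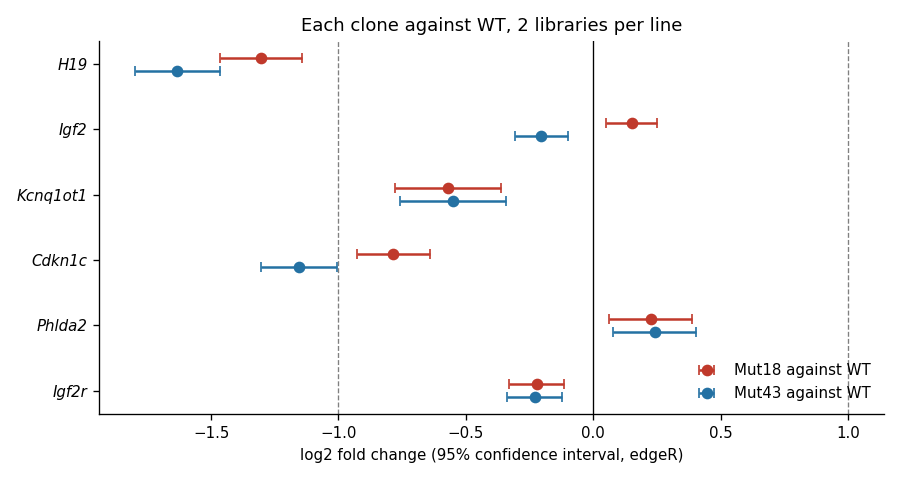
Log2 fold change (horizontal axis) of each gene in Mut18 (red) and Mut43 (blue) against the same 2 WT libraries, with 95% confidence intervals from edgeR and dashed lines at 2-fold. H19 lies beyond 2-fold in both clones, Cdkn1c in Mut43 only, and Igf2 has intervals on opposite sides of 0.

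Of the members tested between the clones, Igf2 and Cdkn1c passed the test. H19 was lower in Mut43 by -0.33 (95% interval -0.51 to -0.14) with an unadjusted p of 0.00111 and an edgeR adjusted p of 0.151. For the other 3 members the difference was small, with 95% intervals of -0.20 to 0.24 for Kcnq1ot1, -0.14 to 0.18 for Phlda2 and -0.12 to 0.10 for Igf2r.

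Levels between genes were compared as CPM (counts scaled to equal library size) per kb of exon. In WT the order was Phlda2 at 34.1 and 40.4, Cdkn1c at 30.7 and 33.2, H19 at 27.3 in both, Igf2 at 22.5 and 22.7, Igf2r at 10.5 and 10.7, and Kcnq1ot1 at 0.245 and 0.255 CPM per kb. The ranges of neighbours in this order did not overlap, although Phlda2 and Cdkn1c came close. In the mutants Phlda2 still stood first (41.0 to 46.1), followed by Igf2 (19.2 to 25.9), Cdkn1c (14.3 to 18.9), H19 (8.10 to 11.5), Igf2r (8.78 to 9.42) and Kcnq1ot1 (0.156 to 0.186 CPM per kb). There the ranges of H19 and Igf2r overlapped. H19 thus ranked above Igf2 per kb in WT and below it in every mutant library. This rank in WT depends on the length used, the exons of all transcripts together, 2.46 kb for H19 and 5.72 kb for Igf2. By counts alone H19 lay below Igf2 in WT too.

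Genes beside the members moved less than H19. Of 9 listed neighbours in the H19-Igf2 domain 3 were tested, and none was called. Mrpl23, a mitochondrial ribosomal protein gene, rose by 0.35 on the log2 scale (edgeR adjusted p = 0.00107), and Ctsd, encoding the lysosomal protease cathepsin D, fell slightly (-0.15, edgeR adjusted p = 0.00756). The third, Lsp1, stood at 114 and 98.0 normalized counts for WT, 119 and 102 in the Mut18 libraries and 70.2 and 59.9 in those of Mut43, and was lower in Mut43 than in Mut18 (-0.77, edgeR adjusted p = 0.0427).

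Around Kcnq1ot1, 12 of 16 listed neighbours were tested, of which 4 were lower and 2 higher by adjusted p, 6 did not pass, and none was called. Cd81, a tetraspanin gene, was at 1387 and 1313 normalized counts in WT and 981 to 1034 in the mutants (log2 fold change -0.42, edgeR adjusted p = 2.35e-07). Osbpl5, a lipid-transfer protein gene, was at 85.9 and 98.0 in WT and 47.5 to 55.0 in the mutants (-0.87, edgeR adjusted p = 0.000115). Tnfrsf23 and Tnfrsf22, which encode decoy receptors, fell by 0.85 (edgeR adjusted p = 0.000923) and by 0.29 (0.0149).

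The genes there that rose were Cars, a transfer RNA synthetase gene, by 0.39 (edgeR adjusted p = 1.19e-06) and Dhcr7, of cholesterol synthesis, by 0.14 (0.0328). The median over the 12 was -0.08 on the log2 scale, with -0.00407 over all tested genes and -0.00184 over the 1073 tested genes of chromosome 7. Around Igf2r, 4 of 10 listed genes were tested, and Tcp1, a chaperonin gene, was the 1 that passed (0.12, edgeR adjusted p = 0.0133).

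Listed genes of IGF signalling and binding were mostly lower. The list held 20 genes, mainly of IGF ligands, receptors, binding proteins and adaptors. It also held M6pr, and Igf2bp1, Igf2bp2 and Igf2bp3, which encode RNA-binding proteins. Of the 20 genes 17 were tested, of which 12 were lower and 1 higher by adjusted p and 4 did not pass. Of all tested genes 24.5% were lower and 23.5% higher. Igf2bp1 (-0.12) and Igf2bp3 (-0.93) were among the 12. The median was -0.76, and the summed counts of fibroblast marker genes were lower in the mutants too (7210 and 5806 for WT, 3225 to 4959 for the mutants). Their part in this change was not tested. Past 2-fold, 5 were lower and none higher, where 5.65% and 3.28% of all tested genes were. The receptors that transmit the IGF signal fell, Igf1r from 662 and 642 normalized counts in WT to between 428 and 490 in the mutants (-0.53, edgeR adjusted p = 1.73e-06) and Insr from 344 and 353 to between 202 and 207 (-0.76, edgeR adjusted p = 9.05e-08).

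Their adaptor Irs2 went from 284 and 276 to between 83.2 and 138 (-1.42, edgeR adjusted p = 1.86e-08) and Irs1 from 156 and 147 to between 59.0 and 91.1 (-1.01, edgeR adjusted p = 7.58e-06). Pappa, a protease that frees IGFs from their binding proteins, had 57.6 and 53.9 in WT and 13.2 to 30.0 in the mutants (-1.44, edgeR adjusted p = 6.5e-05). Igfbp5, a binding protein gene, had 148 and 97.0 in WT and 47.8 to 68.1 in the mutants (-1.11, edgeR adjusted p = 2.57e-05). Irs1 and Igfbp5 were no longer past 2-fold without WT replicate 1 (-0.96 and -0.77).

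Igf1, the other IGF ligand gene, was decided by 1 library. WT replicate 1 had 93.7 normalized counts and WT replicate 2 had 4.9, while Mut18 stood at 16.0 and 3.0 and Mut43 at 3.1 and 6.1. Igfbp5 and most of the fibroblast marker genes, among them Col3a1 (843 and 257) and Postn (288 and 111), were likewise higher in WT replicate 1 than in WT replicate 2. The other fibroblast markers, S100a4 (125.0 and 145.1), Twist1 (85.9 and 103.9) and Thy1 (87.9 and 100.0), were lower in WT replicate 1. The Igf1 log2 fold change of -2.78 (edgeR adjusted p = 0.0017) became 0.52 without WT replicate 1 (edgeR adjusted p = 0.659).

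**Figure D3:**
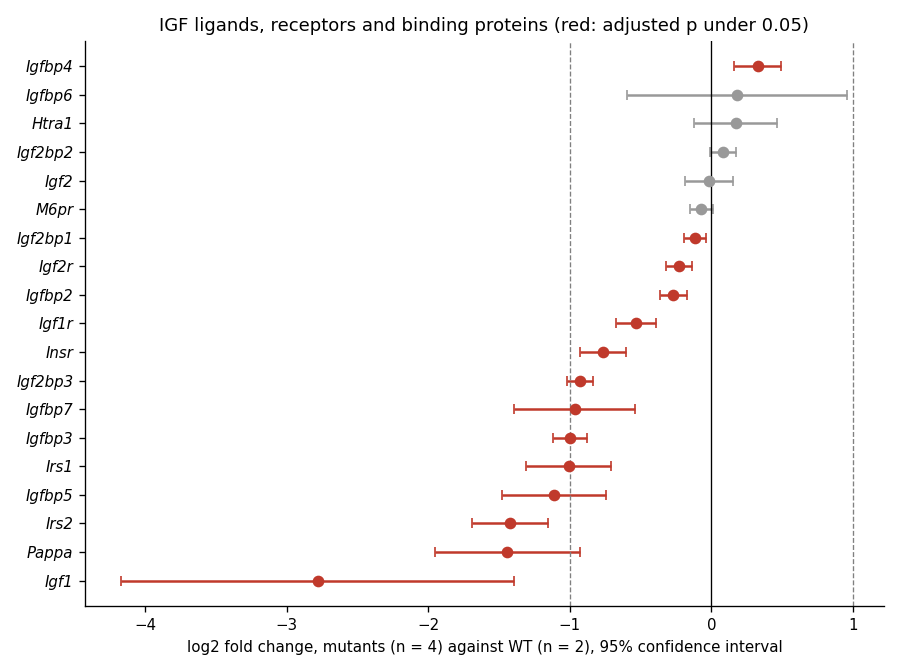
Log2 fold change in mutants (n = 4) against WT (n = 2) with 95% confidence intervals for the tested genes of the IGF list, which includes M6pr and the Igf2bp genes, and for Igf2 and Igf2r, red where the edgeR adjusted p is under 0.05, with dashed lines at 2-fold. Most points lie left of 0, Igf2 lies at -0.02, and the widest interval belongs to Igf1.

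Among 8 relatives of Cdkn1c and Phlda2, 5 were lower and 1 higher by adjusted p, with a median of -0.25. The kinase inhibitor genes nearest in kind to Cdkn1c fell less than it did, Cdkn1a from 695 and 691 normalized counts to between 497 and 592 (-0.32, edgeR adjusted p = 0.000663) and Cdkn1b from 441 and 455 to between 357 and 387 (-0.26, edgeR adjusted p = 0.00512). Cdkn2c was called lower (-1.13, edgeR adjusted p = 0.0139), but it had 35.1 and 13.7 in WT and was at -0.30 without WT replicate 1 (edgeR adjusted p = 0.669). Phlda1 (-0.25) and Phlda3 (-0.42) fell, where Phlda2 rose.

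Of 15 factors that set or protect imprints, 4 were lower and 7 higher by adjusted p, with a median of 0.12. Dppa3, which shields maternal methylation in the early embryo, was the 1 that was called, with 254 and 231 normalized counts in WT and 812 to 934 in the mutants (1.85, edgeR adjusted p = 2.38e-13). The methyltransferase gene Dnmt3b fell from 8836 and 9094 to between 5151 and 5332 (-0.78, edgeR adjusted p = 9.68e-13). Zfp57, encoding the imprint protector named above, rose by 0.14 (edgeR adjusted p = 0.00469), and its relative Zfp445 fell by 0.28 (8e-05).

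Imprinted genes of other loci are the closest comparison for the members. Of 45 listed 37 were tested, 13 were called lower and 1 higher, where 5.65% and 3.28% of all tested genes were, and the median was -0.22. The 6 with the greatest change among those called were Mirg (-4.69), Meg3 (-4.24), Rian (-4.23), Grb10 (-3.98), Peg13 (-3.39) and Calcr (-2.90), all lower (edgeR adjusted p of 8.57e-09 or less). Ddc, which neighbours Grb10, was the 1 called higher (1.06). Without WT replicate 1, Zrsr1 (1.04) and Usp29 (1.63) were also called higher and Peg12 (-1.16) lower, while Nnat (-0.89) and Dcn (-1.03, edgeR adjusted p = 0.122) were no longer called. None of the 6 members moved as far as any of the 6 genes from Mirg to Calcr, which were picked for the size of their change. H19 at -1.46 was the farthest of the members. It moved farther than Ddc and lay within the range of the 13 genes called lower. The difference between the lists was not tested.

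The cells carried the markers of ESCs in every library. All 10 ESC markers were tested, and their summed counts were 61209 and 63504 in WT and 66417 to 69374 in the mutants, so the label held. By adjusted p 2 were lower, among them Pou5f1 (-0.27), and 8 higher, among them Zfp42 (0.72). RNA of other cells was also present. Of 11 fibroblast markers, which feeder cells express, 9 were tested, 8 were lower in the mutants by adjusted p (4 past 2-fold, Postn, Col3a1, S100a4 and Twist1), and 1 did not pass. Their summed counts for WT were 7210 and 5806, for Mut18 4959 and 4528, and for Mut43 3472 and 3225. The library values of H19 and Cdkn1c lay in the same order. For H19 the difference between the clones did not pass the test (edgeR adjusted p = 0.151). None of the 11 was at 0 in all libraries, and Lum was at 0 in 3 of them.

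The part of fibroblast markers in the changes of the members was not tested. Between the WT libraries most fibroblast markers were higher in replicate 1, among them Col3a1 at 843 and 257 normalized counts. The others, S100a4 (125.0 and 145.1), Twist1 and Thy1, were lower there. H19 was at 1010.5 in both WT libraries. Markers of other lineages were few. Trophoblast markers (7 tested) summed to 1985 and 2051 counts in WT and 1605 to 1875 in the mutants. By adjusted p 2 were lower, Cdx2 (-0.80) and Krt8 (-0.31), and 2 higher, Hand1 and Plet1, both called. Primitive endoderm markers (7 tested) summed to 463 and 400 against 264 to 325. Of these, 2 were lower, Foxa2, which was called, and Dab2 (-0.93), and 2 higher, Gata4 (0.50) and Cubn (0.81). Mesendoderm markers (3 tested) summed to 479 and 491 against 153 to 197. Of these, 2 were lower, T, which was called, and Eomes (-0.73), and none was higher.

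As a description over 6 libraries, the genes whose log2 CPM followed each member most closely were named by Pearson's r, among genes that averaged 50 normalized counts or more. For H19 they were Sox11 (r = 0.999), Arl4a (0.999) and Sec63 (0.999), of which Sox11, a developmental transcription factor gene, went from 1219.5 and 1203 normalized counts in WT to between 494 and 626. For Cdkn1c they were Cnn1 (0.999), Manea (0.999) and Piezo2 (0.998), of which Cnn1 encodes the smooth muscle protein calponin. For Igf2 the nearest were looser, Erc2 (0.994), Rdh11 (0.983) and Stx6 (0.964). Kcnq1ot1 was followed by Chd7 (0.996), Akap12 (0.994) and Scaf4 (0.993), Igf2r by Hmgn5 (0.998), Syt11 (0.998) and Wwp1 (0.997), and Phlda2 by Cdc45 (0.996) and Slc10a3 (0.993). The 6 points of each r come from 3 lines with 2 libraries each, and each name is the best of all 14061 tested genes that passed the minimum, so r has no error or p here.

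ATAC-seq marks open chromatin by the cutting of a transposase, and its peaks were called by the authors in each library. Over the members, 8 of 21 regions (38.1%) had a peak in all 6 libraries, where 54.7% of all regions did. Peaks in both WT libraries and in no mutant library (WT only) marked 1 region (3.25% of all regions), and none was open in all 4 mutant libraries while lacking a WT peak (0.733%). WT replicate 1 has the longest list, with 78536 peaks against 63588 to 69811, and it had a peak in 19 of the 21 regions where the others had 10 to 13. Fold enrichment is the authors' ratio of signal over background within a library, and it was not tested between libraries.

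The starts of Kcnq1ot1, Igf2r, Cdkn1c and Phlda2 were open in all 6 libraries. The region over the Kcnq1ot1 start (chr7:143296109-143296932), which holds the whole printed window, had the highest fold enrichment, with WT at 10.9 and 12.0, Mut18 at 12.4 and 12.0, and Mut43 at 12.3 and 13. By -log10 q these peaks lay between percentile 92.4 and 95.1 of their lists. None of the 4 mutant values lay below both WT values, although the RNA was lower in all 4 mutant mRNA-seq libraries.

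The Igf2r start (chr17:12769397-12770024) stood at 9.65 and 9.80 for WT, 12.2 and 10.5 for Mut18, and 10.3 and 7.85 for Mut43. At the Cdkn1c start (chr7:143460840-143461291) the fold enrichment was 3.74 and 5.19 for WT, 6.06 and 4.71 for Mut18, and 5.54 and 4.77 for Mut43. Groups overlapped at both starts.

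At the Phlda2 start (chr7:143502493-143502933) the fold enrichment was 4.30 and 4.70 in WT and 4.02, 3.77, 3.37 and 3.88 in the 4 mutant libraries. The mutant values lay below WT by a small margin, while Phlda2 counts were higher in the mutants. How many of all regions show this order was not counted, so whether it is particular to Phlda2 is not known. The start of Airn inside Igf2r (chr17:12741225-12741723) was open in all 6, at 7.25 and 6.07 in WT and 6.73 to 7.11 in the mutants. Igf2 had no region over its outermost start. Its nearest lay 6.15 kb inside, at a further transcript start shared with the antisense gene Igf2os (chr7:142660543-142660787), with a peak in WT replicate 1, both Mut18 libraries and Mut43 replicate 1 at 3.75 to 4.42.

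**Figure D4:**
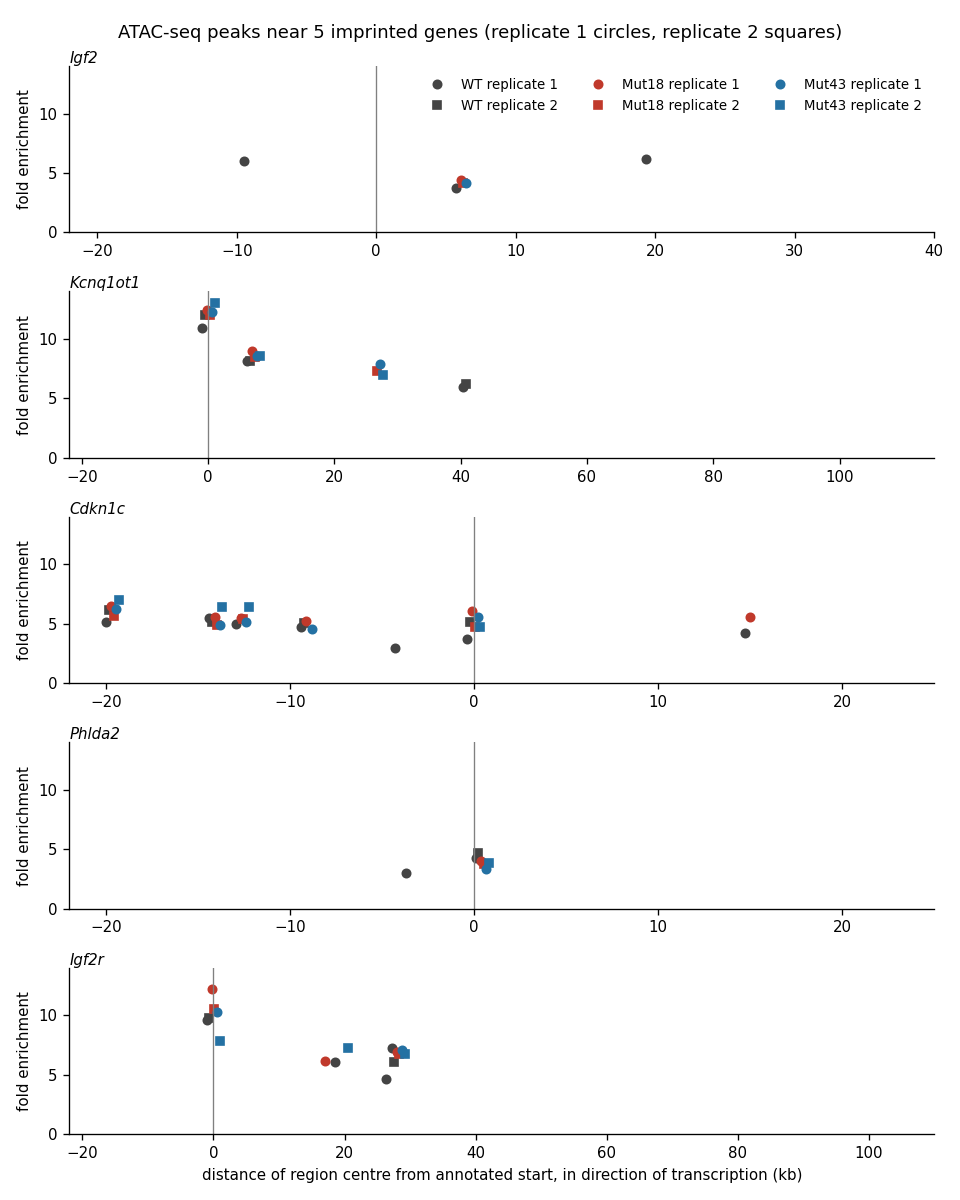
Fold enrichment of ATAC-seq peaks (vertical axes) against distance from the annotated start in the direction of transcription (kb) for the 5 genes with regions within 20 kb, with 1 point per library, colours for lines, and points of a region spread sideways a little so that they can be seen. The starts of Kcnq1ot1, Cdkn1c, Phlda2 and Igf2r carry points of all 6 libraries, and Kcnq1ot1 has a pair of WT points and 3 mutant points deeper in the gene.

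H19 had no peak within 20 kb in any library, although it was among the more strongly expressed genes. Of 3210 genes with at least its mean WT level, 6 (0.187%) lacked a region within 20 kb, and 36 (1.12%) lacked one within 1 kb of a start. The gap in peaks around H19 spanned 72.5 to 77.0 kb. The interval 2 to 4 kb upstream of its start, where the control element of the domain is known to lie, was thus without a peak in WT and mutants alike. The first peak upstream lay 32.6 to 32.7 kb from the start at a fold enrichment of 10.3 to 13.5, between percentile 92.4 and 98.9 of its list by -log10 q. A list without a peak shows that no call was made and not that the chromatin was closed, and the lists carry no read numbers.

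Inside Kcnq1ot1 lay 2 short regions with peaks in more than 1 library of only one genotype, and their sequences are printed because the WT and mutant lists differ there. The region at chr7:143255028-143255173, 41.5 kb from the Kcnq1ot1 start, had a peak in both WT libraries (fold enrichment 5.97 and 6.22, -log10 q 12.1 and 9.76) and in no mutant library. The region at chr7:143269892-143270039, 26.6 kb from the start, had a peak in Mut18 replicate 2 (7.34), Mut43 replicate 1 (7.93) and Mut43 replicate 2 (6.99) but in neither WT library nor Mut18 replicate 1. All 5 peaks ranked in the lower part of their lists, between percentile 5.09 and 32.7 by -log10 q. Both sequences are from GRCm38, plus strand, which is opposite to Kcnq1ot1, with CCAAT in capitals.
WT peak: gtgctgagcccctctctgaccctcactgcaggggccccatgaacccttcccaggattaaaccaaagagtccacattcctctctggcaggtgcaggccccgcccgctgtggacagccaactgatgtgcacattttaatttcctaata
Mutant peak: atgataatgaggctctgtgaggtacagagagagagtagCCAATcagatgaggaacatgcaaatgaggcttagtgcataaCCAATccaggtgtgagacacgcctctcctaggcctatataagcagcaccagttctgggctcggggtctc

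The mutant region held 2 CCAAT matches in 148 bases, as 3.42% of promoter stretches of that length do, and the WT region held none. Neither region lies at a promoter, and the share over ATAC-seq regions was not counted. The WT region was lost when peaks were held to a -log10 q of at least 10 or to equal numbers per library. The peaks near Cdkn1c did not follow its counts. Of its 7 regions 3 were open in all 6 libraries, the farthest at 19.7 kb upstream with 5.20 and 6.14 in WT and 5.70 to 6.97 in the mutants, and none was open in WT alone.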

How the data were processed

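mRNA-seq and ATAC-seq of WT, Mut18 and Mut43 mouse ESCs were used (6 libraries each), grouped by sample titles, while 57 ChIP-seq and input samples were not used here. For mRNA-seq (paired ends, mm10 joined to dm6) the authors deposited raw counts of reads for each gene, with library totals from 14992756 to 15143998. For ATAC-seq the authors deposited MACS2 peaks per library, each with a fold enrichment (a ratio over background) and a -log10 p and q, the lowest listed -log10 q being 6. The submitters' processing notes name STAR, Bowtie2 2.3.4.2, SAMtools, deepTools 3.3.0, MACS2 and DESeq2. The counting program, its annotation and its use of strand are not given in the sources used here.

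Counts were filtered (filterByExpr, minimum count 10, minimum total 15), scaled by TMM and tested in R 4.3.3 with edgeR 4.0.16, in a fit of 2 groups and, for clones, of 3, with SE and 95% intervals from the F statistic. DESeq2 1.42.0 was an alternative. The log2 H19 to Igf2 ratio added 0.5 to each count. Symbols were placed by GENCODE M21, of the same build as mm10 (15616 of 16263). Peaks overlapping by at least 1 bp were merged with Python 3.11.15. Scripts were tested on simulated data. Replicates are stated to be independent, those of 1 line differed beyond counting error (chi-square per gene 1.81 to 3.06), and p-values measure the spread between these samples. The members and lists were chosen with earlier results of these data known. Named genes were the members, list genes called (at most 6 per list by size of change), neighbours with an adjusted p under 0.05, the 3 genes most alike each member (1 of them is not reported here), and regions at starts or split by genotype. Zrsr1, Usp29, Peg12, Nnat, Dcn, Ddc, Igf1r, Insr, Lsp1, Cdkn1a, Cdkn1b, Phlda1, Phlda3, Dnmt3b, Zfp57, Zfp445, Pou5f1, Zfp42 and Lum were named after their values were seen. The same holds for Cdx2, Krt8, Dab2, Gata4, Cubn, Eomes, Thy1, M6pr, Igf2bp1, Igf2bp2 and Igf2bp3.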

Additional observations from a re-analysis of the deposited data

Results flagged for a closer look

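Igf2 and Cdkn1c differed between the 2 mutant clones by a direct test. Igf2 was lower in Mut43 than in Mut18 by a log2 difference of -0.355, with Mut18 above WT and Mut43 below it. Cdkn1c was lower in Mut43 by a log2 difference of -0.370, with both clones below WT. Summed counts of fibroblast markers also differed between the clones (4959 and 4528 in Mut18, 3472 and 3225 in Mut43), and their part in either difference was not tested. Each line is 1 clone, so an effect of the mutation and one of the clone cannot be told apart in these differences.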

How the results depend on the processing

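The direction of each member's change that passed the test held under every alternative, and H19, Kcnq1ot1 and Igf2r against WT, and Cdkn1c against WT at the adjusted p, stayed past the threshold in all of them (21 values lost an adjusted p under 0.05, 15 counts moved, 386 did neither). With library totals alone Igf2 and Phlda2 in Mut18 came to 0.12 and 0.19 (edgeR adjusted p 0.0526 and 0.0529). In DESeq2 Igf2 in Mut18 was 0.15, Phlda2 was 0.23 in Mut18 and 0.24 in Mut43, and Cdkn1c between clones was -0.37 (adjusted p 0.0647, 0.103, 0.066 and 0.129), as it was -0.37 without a filter on low counts (edgeR adjusted p 0.0558). A minimum count of 30 left 781 genes called in place of 1255, and no fold threshold gave 5 members, 39 list genes in place of 7 and 6749 genes. Leaving out 1 library at a time gave 1 to 2 members called and 4 to 11 list genes (4 without WT replicate 1, 11 without WT replicate 2), log2 fold changes of Phlda2 of 0.12 to 0.37 pooled, 0.11 to 0.36 in Mut18 and 0.13 to 0.38 in Mut43, of Igf2 in Mut18 of 0.11 to 0.20, and between clones of -0.40 to -0.31 for Igf2 and -0.40 to -0.34 for Cdkn1c. The cause of these losses was not tested beyond the smaller number of libraries. For ATAC-seq, a -log10 q of at least 10 and equal numbers of peaks each left 0 WT-only regions, a window of 50 kb gave 16 regions open in all 6, and leaving out 1 library gave 1 to 6 WT-only regions (6 without WT replicate 2) and 0 to 1 mutant-only regions (1 without WT replicate 1 or without Mut18 replicate 1).

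Replicate numbers did not pair the samples (correlations of deviations between -0.0115 and 0.0228). With a replicate block, H19 was at -1.46 (edgeR adjusted p 5.38e-12), 1 member and 1256 genes were called, and no member changed its call. Depth limits Airn, and 2 WT libraries limit the precision of every value.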
